A study of Mus musculus with 8 samples.

Results

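The cells described here were monocytes, by marker genes, from mouse skin wounds, with a high summed rate of 4 interferon-induced genes. They were chosen by a fixed rule on single-cell RNA counts, and 361 of the 35158 cells kept in the whole series met it. The rule first kept barcodes with more than 200 non-mitochondrial genes and under 20% mitochondrial UMIs (unique molecular identifiers, each standing for 1 captured RNA molecule). A cell counted as a monocyte when Fn1, Vcan and Ccr2 together reached 10 UMIs per 10000, when C1qa, C1qb and C1qc together stayed below 10 per 10000, and when Cd209a was at 0 UMIs. Of the 3914 monocytes found in this way, the 361 members had Ifit2, Ifit3, Rsad2 and Cxcl10 together at 15 or more UMIs per 10000, and the other 3553 monocytes did not. The levels of those 4 genes, and of every gene that moves with them between members and other monocytes, were therefore a consequence of the choice and are given below as description without a test.

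Wounds were made on the backs of male C57BL/6J mice, and CD45+ (leukocyte) cells were sorted from the wound tissue on days 1, 3, 5 and 7. Diabetic mice had received streptozotocin (STZ, a toxin of insulin-producing beta cells) at 120 mg/kg when 4 weeks old, and were used when blood glucose reached at least 16.5 mmol/L after 7 days. Control mice were wounded in the same way. The wounds of 5 mice were pooled into 1 library for each group and day, which gave 8 libraries. A single day therefore had no repeat of its own, and no p-value below measures the spread between mice. The p-values rest on these pooled libraries across days, and those of edgeR take the spread of a gene in part or wholly from all genes. STZ diabetes of this kind is a young, insulin-deficient model, and the sort left out the CD45-negative cells of the wound.

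Type I interferons (Ifnb1 and the Ifna family) bind the receptor made of Ifnar1 and Ifnar2 and act through receptor-bound kinases on a complex of transcription factors. This complex binds a DNA element built of GAAA repeats and turns on genes that block virus growth, present antigen and draw in lymphocytes. Monocytes with this programme have been described in infection, in autoimmune disease and in sterile tissue damage, where nucleic acids of dying cells can be the trigger.

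The 6 label markers were looked at beside those of other cell types. Rsad2, Cxcl10 and Ifit2 were used by the rule, so that their shares describe the choice and check nothing: Rsad2 had a UMI in 311 of the 361 members (86.1%, exact 95% interval 82.2 to 89.5), Cxcl10 in 257 (71.2%) and Ifit2 in 111 (30.7%). Of the markers that the rule did not use, Ms4a4c had a UMI in 238 members (65.9%), Irf7 in 189 (52.4%) and Ifi205 in 177 (49.0%). In T cells, taken as a class in which free RNA sets part of the signal, the shares of Ms4a4c, Irf7 and Ifi205 were 10.5%, 15.1% and 2.38% (Rsad2 13.7%, Cxcl10 11.5%, Ifit2 3.11%), at a median of 3321 to 4566 UMIs per T cell against 6253 per member. The monocyte genes Ly6c2, Plac8, Chil3 and F13a1 together reached a rate of 10 per 10000 in 287 of the 361 members (79.5%). Ifit2 was seen in too few cells to mark members one by one, and on diabetic day 3 it came from 1 UMI in 1 of 24 cells.

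Some members also held genes of other cell types. The neutrophil genes Csf3r, Cxcr2, Il1r2 and Retnlg reached 10 per 10000 in 84 of the 361 members (23.3%), with 44 of 176 on diabetic day 1 and 24 of 93 on control day 1. In the other monocytes of those 2 libraries the shares were 29.8% and 23.2%. T cell genes (Cd3d, Cd3e, Cd3g, Trac, Trbc2) passed the same rate in 9 members, 5 of them among the 16 on diabetic day 7 and 2 among the 20 on diabetic day 5. In the other monocytes of diabetic day 7 the T cell rate was passed by 106 of 277 (38.3%), against 31.3% of the members. Among the 16 diabetic day 7 members 1 cell with 39386 UMIs held 2342 UMIs of the fibroblast genes Col1a1, Col1a2, Dcn and Bgn, 4 cells had entered on a single UMI, and 7 (43.8%) reached the rate of 10 for the monocyte genes above, against 31.0% of the other monocytes. Diabetic day 7 is therefore named here by the rule only. The same holds for control days 5 and 7, with 3 and 2 members. There the antiviral genes summed over cells were not higher in members, while their medians per cell were (below). Of the genes of plasmacytoid dendritic cells, which are known as strong interferon producers, Ly6d and Klk1 were at 0 in members of every library and Siglech was at 0 in 6 of 8. Their whole list, which also holds Tcf4, Ccr9 and the antiviral effector Bst2, was nevertheless higher in members of each of the 5 libraries with 20 or more members, at 308 to 532 CPM (UMIs in every 1000000 of the summed cells) against 233 to 287 CPM in the other monocytes (1.23 to 1.94 times). Endothelial genes, which a CD45 sort should leave behind, were higher in the same 5 libraries, at 23.3 to 88.0 CPM against 18.4 to 49.8 CPM (1.26 to 3.47 times), with Emcn at 0 in members of every library. B cell genes summed to 0 to 34.7 CPM and keratinocyte genes to 0 to 5.82 CPM in members. How far these cells of mixed markers set the values below was not tested, except where a value without them is given.

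Libraries held 19236522 to 33842509 UMIs and 3266 to 5436 cells each after filtering. The share of barcodes removed was 1.0% to 10.8% in 7 libraries and 28.6% on control day 5. Members had a median of 5400 to 10300 UMIs per cell by library and other monocytes 4896 to 7457.5. A doublet caller marked 68 cells (0.193%) and none of the members, a share too low for the caller to be taken as working, so doublets may remain among the cells. By their counts, 22 members held just 1 UMI of the 4 rule genes.

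Motifs of the interferon response element type were looked for in the promoters of the label markers, of which the rule used 3 (Rsad2, Cxcl10 and Ifit2), and of the rule gene Ifit3. RefSeq promoter windows (GRCm38.p6, 250 bases before to 50 after each start) were searched on both strands for a pair of GAAA copies with any 2 bases between them (on the other strand a pair of TTTC copies). A match stood in 1131 of 32851 windows (3.44%), and in 311 of the 7610 genes with a window that had at least 50 UMIs in the monocytes (4.09%). Of the 18 genes with a window among those at least 2-fold higher in members of all 5 libraries with 20 or more members (below), 12 held a match (66.7%). The rule genes Rsad2, Cxcl10 and Ifit3 were among the 12, and without them 9 of 15 held one (60%). Of the 6 label markers, 3 did: Rsad2, Ifi205 and Cxcl10. Ifit3, a rule gene, held 2 matches. Irf7, Ms4a4c and both windows of Ifit2 held none, which says only that these letters are not in those windows. The upstream 250 bases of the 4 genes with a match are given 5′ to 3′ on the strand of the gene, with matches in capitals. They lie at chr12:26456453-26456702 (minus strand, Rsad2), chr1:174031756-174032005 (minus strand, Ifi205), chr5:92348890-92349139 (minus strand, Cxcl10) and chr19:34583279-34583528 (plus strand, Ifit3).
Rsad2: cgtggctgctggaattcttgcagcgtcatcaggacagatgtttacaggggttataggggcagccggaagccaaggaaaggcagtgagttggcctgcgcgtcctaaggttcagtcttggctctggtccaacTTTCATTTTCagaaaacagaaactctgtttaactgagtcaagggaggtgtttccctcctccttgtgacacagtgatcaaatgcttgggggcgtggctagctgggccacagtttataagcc
Ifi205: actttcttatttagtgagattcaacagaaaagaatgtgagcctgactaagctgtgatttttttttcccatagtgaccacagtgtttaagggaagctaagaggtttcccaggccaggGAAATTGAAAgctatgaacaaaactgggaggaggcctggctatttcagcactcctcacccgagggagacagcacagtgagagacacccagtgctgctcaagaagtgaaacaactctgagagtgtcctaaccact
Cxcl10: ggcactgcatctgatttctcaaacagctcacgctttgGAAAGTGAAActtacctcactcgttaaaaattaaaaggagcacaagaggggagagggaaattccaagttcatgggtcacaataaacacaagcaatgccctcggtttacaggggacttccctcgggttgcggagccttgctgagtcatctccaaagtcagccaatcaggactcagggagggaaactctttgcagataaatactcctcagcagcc
Ifit3: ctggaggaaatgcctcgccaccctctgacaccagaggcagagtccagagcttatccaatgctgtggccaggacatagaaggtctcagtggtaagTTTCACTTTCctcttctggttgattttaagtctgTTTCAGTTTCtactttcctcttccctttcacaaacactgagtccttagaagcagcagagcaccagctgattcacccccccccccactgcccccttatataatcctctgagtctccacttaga
The Rsad2 match began 120 bases before the start, that of Ifi205 134 bases, that of Cxcl10 213 bases and those of Ifit3 156 and 122 bases before it. Ifi205 held a second match 23 bases after the start, outside the printed bases. A match is a description of the sequence and not a measured binding site.

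Members made up the largest share of monocytes on day 1 and a small share later. On day 1 they were 176 of 1129 monocytes in the diabetic library (15.6%, exact 95% interval 13.5 to 17.8) and 93 of 827 in the control library (11.2%, 9.17 to 13.6). On day 3 the shares were 24 of 410 (5.85%, 3.79 to 8.58) and 27 of 537 (5.03%, 3.34 to 7.23), and on day 5 they were 20 of 543 (3.68%, 2.26 to 5.63) and 3 of 80 (3.75%, 0.780 to 10.6). On day 7 they were 16 of 293 (5.46%, 3.15 to 8.72) and 2 of 95 (2.11%, 0.256 to 7.399). The day 1 intervals lay above those of every later library, except that the control day 1 interval met that of control day 5, which rested on 80 monocytes. These intervals cover counting error only.

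**Figure D1:**
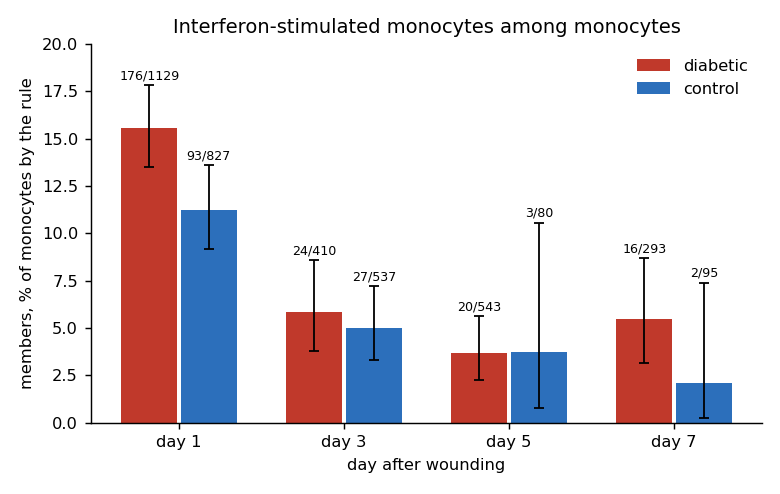
Members as a percentage of the monocytes by the rule (bars) on each day after wounding, in diabetic and control libraries, with exact 95% binomial intervals and 1 library per bar. The day 1 bars stand at 15.6% and 11.2%, and the later bars lie between 2.11% and 5.85%.

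Whether diabetes changed the share was asked across the 4 days. The diabetic library was higher by 4.34 percentage points on day 1, 0.826 on day 3 and 3.36 on day 7, and the difference was -0.0668 points on day 5, shown in the plot of shares by day. The mean difference was 2.11 points (SD 2.08, n = 4 days), which did not pass an exact two-sided permutation test over days (p = 0.25, where the smallest p that 4 days allow is 0.13).

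Genes that went with the rule genes were described in the 5 libraries with at least 20 members: diabetic days 1, 3 and 5 and control days 1 and 3. For each, UMIs were summed over members and over other monocytes, scaled to CPM over the summed cells, and compared as the log2 ratio of CPM + 20, which understates the difference of low genes. Ratios given below without a unit are on this log2 scale, and the median of a list is taken over its genes, each with its median ratio over the 5 libraries. The library medians of a list are its medians over genes within each library. Of 9615 genes with at least 50 UMIs, 22 were at least 2-fold higher in members of all 5 libraries (0.229%) and 0 were at least 2-fold lower. Higher in every library, at any size, were 360 genes (3.74%), and lower in every library were 1296 (13.5%). The 22 were 3 rule genes (Rsad2, Cxcl10 and Ifit3) and 19 others. Among the others the 15 with the largest smallest ratio were Ifit1, Ifit1bl1, Ifi47, Irf7, Ifi209, Ddx60, Phf11b, Parp14, Ifih1, Ddx58, Fgl2, Mndal, Isg15, Oasl1 and Mx1. Most are known targets of interferon. Fgl2, a secreted and membrane fibrinogen-like protein, is also made by T cells.

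**Figure D2:**
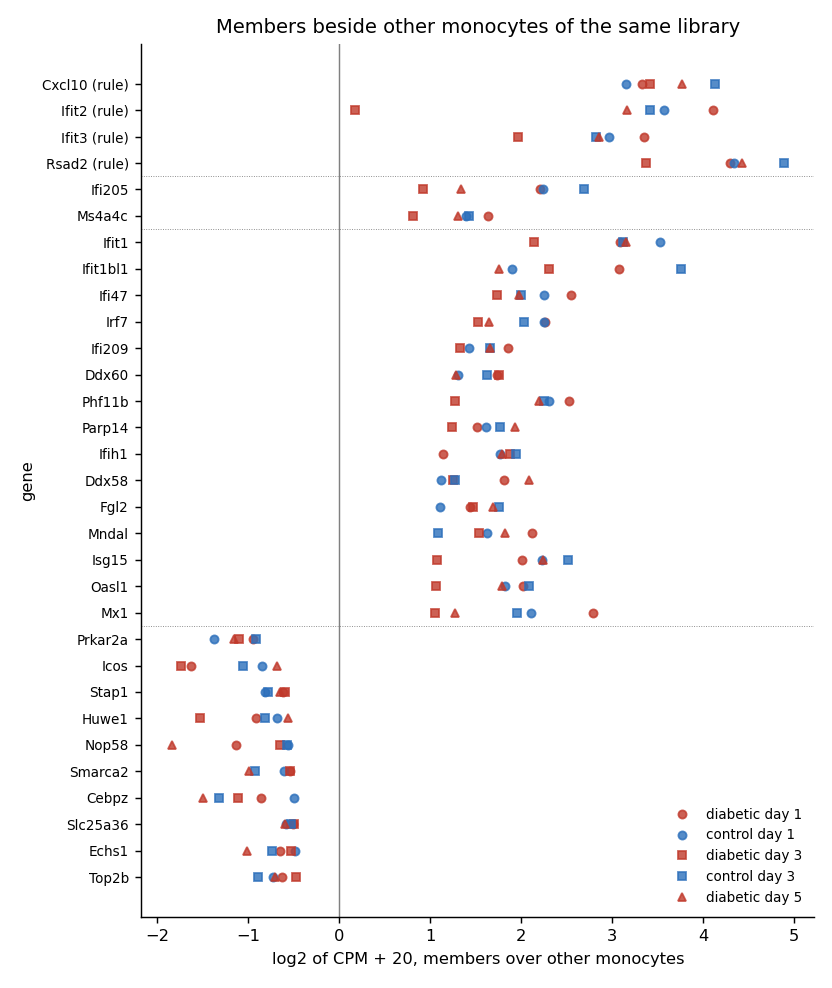
The log2 ratio of CPM + 20, members over other monocytes of the same library (x axis), for genes named by the rule on size (y axis), with 1 point per library and the genes used to choose the cells marked as rule genes. The points of the 15 named higher genes lie at 1.06 or above, and those of the 10 named lower genes at -0.48 or below.

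The distance between members and other monocytes in the rule genes was set by the rule. Rsad2, which encodes the antiviral enzyme viperin, stood at 3380, 2658, 1268, 2667 and 1855 CPM in members of diabetic day 1, control day 1, diabetic day 3, control day 3 and diabetic day 5, in that order, and at 153, 112, 105, 71.0 and 67.4 CPM in the other monocytes. Cxcl10, a chemokine for T cells and NK cells that carry Cxcr3, stood at 1334, 1046, 826, 1359 and 1107 CPM against 115, 100, 59.4, 58.8 and 62.9. Ifit2, an RNA-binding antiviral protein, stood at 425, 269, 5.82, 274 and 208 CPM against 2.93 to 7.65. Diabetic day 3 was the lowest of the 5 libraries for each of these 3 genes.

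Among label markers that the rule did not use, Irf7, the regulator that amplifies interferon production, stood at 505, 536, 308, 558 and 415 CPM in members, in the same order of libraries, and at 89.2 to 122 CPM in the other monocytes. Ms4a4c, a membrane protein of monocytes, stood at 1348, 1138, 646, 1147 and 1013 CPM in members and at 361 to 421 CPM outside. Ifi205, a nuclear protein of the p200 family, stood at 592, 516, 233, 253 and 302 CPM, against 22.3 to 113 CPM. No value of these 3 genes in members overlapped with the other monocytes.

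Ligands of the interferon pathway were mostly not detected. The deposited counts held 11 of the 21 ligand genes listed, and the others could not be judged. Of 21 ligand genes, Ifnb1 alone had 50 UMIs in the monocytes, and it held 200 UMIs in 49 of the 361 members (13.6%, exact 95% interval 10.2 to 17.5) against 2.59% of the other monocytes and 0.823% of T cells. These shares pool all days. Members came mostly from day 1 and T cells mostly from later days, when Ifnb1 was lower, so they are not like for like (day 1 below). The Ifna genes together gave a single member UMI (Ifna1), which at this depth does not show absence. Ifng, the type II interferon, had 7 UMIs in members and 440 in T cells. Of the ligands of Cxcr3, Cxcl9 came largely from single cells: 99 of its 102 UMIs on control day 3 and 174 of its 256 on diabetic day 7 each lay in 1 cell.

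Receptor genes overlapped between both groups of monocytes, whereas Stat2, a signal transducer, did not. Ifnar1 stood at 72.4 to 212 CPM in members and 88.0 to 206 in the other monocytes, and Ifnar2 at 87.9 to 164 and 108 to 136. Stat2 was higher in every library, at 221, 172, 128, 134 and 138 CPM against 53.7 to 84.5. Ifngr1, which encodes the receptor chain for Ifng, was the list member that was lower in every library (-0.08 to -0.95). Over the receptors and transducers the median was -0.08 and the library medians ran from -0.24 to 0.15, above 0 in 3 of 5, while the median of all genes was -0.10. Of 7 interferon regulatory factors, Irf7 alone was higher in every library: Irf1 ranged from -0.49 to 0.75 and Irf8 from -0.32 to 0.65.

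Sensors and feedback inhibitors were higher in part. Ifih1 (MDA5), a sensor of long double-stranded RNA, stood at 346, 320, 395, 341 and 314 CPM in members and 74.1 to 146 outside. Ddx58 (RIG-I) stood at 231, 144, 105, 119 and 220 CPM against 32.6 to 55.8, and Zbp1, a sensor of left-handed nucleic acids, was higher by 0.61 to 1.76. Tlr7, which senses single-stranded RNA in endosomes, was higher in every library by 0.24 to 0.46. The cytosolic DNA pathway differed: Mb21d1 (cGAS) ranged from -0.10 to 0.57 and its partner Tmem173 (STING) from -0.79 to 0.57. Of the 15 sensors and adaptors measured, 4 were higher in every library and 0 lower. Among 6 feedback inhibitors, Trim30a (0.73 to 1.26) and Socs1 (0.11 to 0.77) were higher in every library, whereas Usp18, which removes Isg15 and dampens receptor signalling, was at 1.69 to 2.28 in 4 libraries and at -0.06 on diabetic day 3.

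Antiviral effectors are the products that hinder virus growth inside the cell. Of 41 measured, 33 had a positive ratio throughout the 5 libraries (9 by at least 2-fold in each), 1 was lower throughout, and the median ratio was 1.17 (library medians 0.58 to 1.5). Isg15, the ubiquitin-like modifier, stood at 839, 776, 430, 636 and 623 CPM in members against 194, 151, 193, 94.9 and 117 CPM. Ifit1, which binds foreign capped RNA, stood at 609, 480, 326, 253 and 277 CPM against 11.5 to 58.6. Mx1, a GTPase against influenza viruses, stood at 220, 149, 40.7, 82.7 and 56.6 CPM against 6.61 to 19.3. The member that was lower in every library was Ifitm2 (-0.49 to -0.01), and its relative Ifitm3, which was abundant in both groups, was higher by 0.15 to 0.73. Cmpk2, the neighbour of Rsad2 in the genome, was 2.41 to 3.20 higher in 4 libraries and at -0.22 on diabetic day 3, where it rested on 1 UMI.

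Families that act against intracellular microbes followed. Of 9 p200 genes measured, 8 were higher in every library (median 1.29, library medians 0.92 to 1.35), among them Mndal at 671, 520, 471, 455 and 566 CPM against 140 to 203. Of 10 guanylate-binding proteins and immunity-related GTPases, 8 were higher in every library (median 1.37, library medians 0.32 to 1.58). Gbp2 stood at 444, 297, 355, 755 and 126 CPM against 54.8, 37.1, 130, 46.3 and 52.1, so its margin was widest on control day 3 and narrowest on diabetic day 5. Summed over the list, these GTPases were 2.15 to 7.24 times as abundant in members.

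Chemokines and inflammatory cytokines were higher in part. Of 13 chemokines outside the Cxcr3 ligands, 7 were higher in every library (median 0.62, library medians 0.11 to 0.64). Ccl4, a chemokine for monocytes and lymphocytes, stood at 6039, 4938, 4583, 3137 and 3774 CPM in members against 3336, 2638, 1770, 964 and 1151. Ccl5 ranged from 0.11 to 1.78 and the monocyte attractant Ccl2 from 0.08 to 0.86, both at the smallest margin on diabetic day 5. Of 18 inflammatory genes, 5 were higher in every library. Tnf, the cytokine that starts much of the vascular response, stood at 2492, 2190, 3978, 3566 and 2685 CPM against 1300, 1201, 1623, 875 and 1360. Il1b, by contrast, ranged from -0.42 to 0.82, and the acute-phase gene Saa3 from -2.09 to 1.18.

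Antigen presentation separated into its 2 classes. Of 18 genes of MHC class I and peptide loading, 10 were higher in every library (median 0.46, library medians 0.25 to 0.58), including B2m, the light chain of class I, at 4267, 3974, 3548, 5142 and 4176 CPM against 2728, 2537, 3031, 3663 and 3647. Of 7 class II genes, 0 were higher in every library and 3 were lower (median -0.48, library medians -0.90 to 0.06). The dendritic cell genes Ccr7 and Fscn1 together stood at 10.8, 8.20, 52.3, 20.7 and 94.3 CPM in members, in the same order of libraries. In the other monocytes they stood at 25.2, 16.1, 74.4, 43.8 and 81.1 CPM. Whether dendritic cells among the monocytes set the class II values was not tested. Among 12 costimulation and death genes, 6 were higher in every library. Daxx, a chromatin and death-domain adaptor, stood at 175, 185, 98.9, 114 and 138 CPM against 30.9 to 48.0, while Cd86 ranged from -0.16 to 0.22.

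Genes of monocyte identity and of wound monocytes showed no such pattern. Ly6c2, the mark of classical monocytes, was higher in 4 libraries (0.75 to 1.05) and at -0.15 on control day 3. The highest ratio, on diabetic day 5, rested largely on 1 cell that held 142 of the 214 Ly6c2 UMIs of members. Of 10 classical monocyte genes 1 was higher and 2 lower in every library, of 7 non-classical genes 0 were higher and 1 lower, and of 12 wound monocyte genes 1 was higher and 1 lower. Vegfa ranged from -0.11 to 0.28 and Hmox1 from -0.20 to -0.05. The 10 genes named for the lowest ratios were Prkar2a, Icos, Stap1, Huwe1, Nop58, Smarca2, Cebpz, Slc25a36, Echs1 and Top2b. Icos, a costimulatory receptor of T cells, stood at 1.64 to 264 CPM in members and 19.1 to 435 CPM in the other monocytes. On diabetic day 5, where it was highest, 2 of 20 members and 85 of 523 other monocytes passed the T cell rate. Left without cells of T cell genes, 4 libraries kept 20 members, and 23 genes were 2-fold higher in each of them, 20 of which were among the 22.

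The members were not alike among themselves. Of the 361, 199 reached 15 per 10000 through Ifit2, Ifit3 and Rsad2, 69 through Cxcl10 alone (19.1%), 56 through both, and 37 only when the 4 genes were summed. Cxcl10 alone brought in 19 of 176 members on diabetic day 1 and 16 of 93 on control day 1, but 9 of 16 on diabetic day 7. On day 1 the cells that passed by both routes had the most antiviral effector UMIs, 33244 CPM in the diabetic and 30595 CPM in the control library. Cells that passed by Ifit2, Ifit3 and Rsad2 had 21777 and 20550 CPM, cells that passed by Cxcl10 alone 15532 and 16379 CPM, and cells that passed only by the sum 17281 and 17320 CPM. The other monocytes of the same libraries had 10289 and 9784 CPM, below each of these kinds of member.

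Per cell, the effectors (41 genes with values, among them the label marker Ms4a4c and none of the rule genes) formed a continuous range. Their median rate was 188 per 10000 UMIs in members and 84.4 in other monocytes. Monocytes just below the threshold, at a rule rate of 12 to 15, had a median effector rate of 117 (74 cells), and members just above it, at 15 to 18, had 143 (45 cells). Of the other monocytes 225 (6.33%) lay above the median of the members, and 61 members (16.9%) lay below the median of the other monocytes. By library the medians of members and others were 206 and 98.1 on diabetic day 1, 209 and 94.1 on control day 1, 104 and 75.8 on diabetic day 3, 160 and 108 on control day 3, and 171 and 71.3 on diabetic day 5. On diabetic day 7 the order turned, with 42.3 in the 16 members and 46.3 in the others. The medians were 49.5 and 39.5 on control day 5 (3 members) and 114 and 61.5 on control day 7 (2 members).

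**Figure D3:**
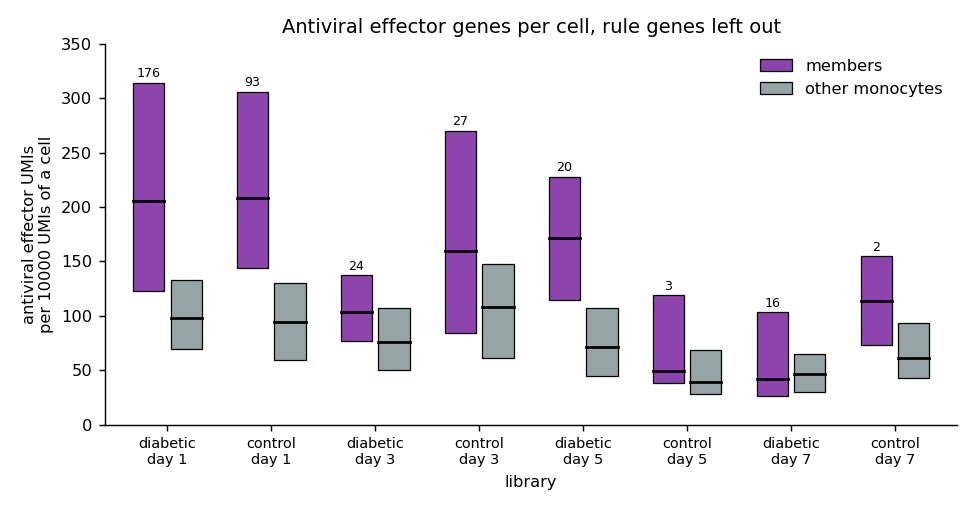
Antiviral effector UMIs per 10000 UMIs of a cell (y axis, rule genes left out) in members and other monocytes of each library (x axis), with boxes from the first to the third quartile and a line at the median. The member box of diabetic day 1 has its median at 206 against 98.1 in the other monocytes, and on diabetic day 7 the medians are 42.3 and 46.3.

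Ifnb1, the ligand, was found among the members mainly on day 1. It stood at 142 CPM (33 of 176 cells) on diabetic day 1, 75.4 CPM (11 of 93) on control day 1, 23.3 CPM (4 UMIs) on diabetic day 3, 0 on control day 3 and 6.29 CPM (1 UMI) on diabetic day 5. The other monocytes had 14.2, 14.5, 1.25, 0.348 and 1.99 CPM in those libraries. Among the classes set by marker genes, macrophages, by the C1q genes, were the next on day 1, at 70.2 and 56.8 CPM. In T cells, which are not known for Ifnb1, 4 of 68 cells and 2 of 67 held a UMI on day 1. In the other monocytes of day 1 it was 50 of 953 in the diabetic and 28 of 734 in the control library, near the T cell shares.

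**Figure D4:**
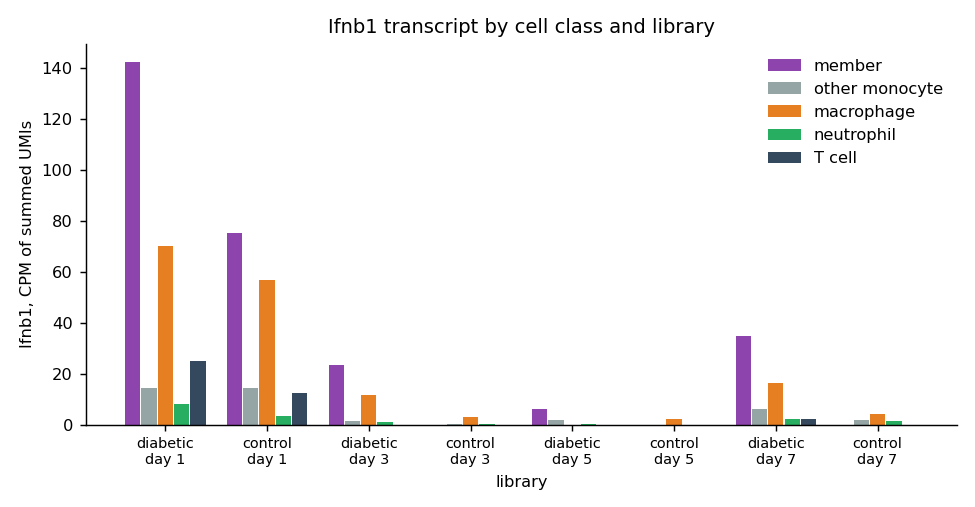
Ifnb1 in CPM of the UMIs summed over each cell class (y axis) in each library (x axis), with classes set by marker rates. Members reach 142 CPM on diabetic day 1 and 75.4 on control day 1, and later libraries lie at 34.7 CPM or below. Cells outside these classes are not drawn.

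On diabetic day 1 the members were 3.70% of the cells and held 31.5% of the Ifnb1 UMIs, and on control day 1 they were 2.11% of the cells and held 12.2%. Cells outside the marked classes held 27.6% on diabetic and 46.0% on control day 1. On control day 1 the other monocytes (20.1%) and macrophages (14.6%) also held more than the members. From day 3 on, in every library but diabetic day 5, macrophages held most Ifnb1 UMIs (52.9% to 74.5%). On diabetic day 5 the whole library had 18 Ifnb1 UMIs and macrophages held 0. Members with an Ifnb1 UMI did not stand out in effectors on diabetic day 1, with a median rate of 202 per 10000 against 208 in those without, although they were deeper (7861 against 5141 UMIs per cell). On control day 1 the rates were 216 and 204, at depths of 8675 and 5226.5 UMIs. Ccl5 was higher in the Ifnb1 cells, at 1078 against 497 CPM and 1089 against 181 CPM. Single effectors went both ways. Ifit1 stood at 826 against 527 CPM and 750 against 420 CPM, and Isg15 at 769 against 866 and 607 against 813 CPM.

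Other cell classes held the rule genes as well. The same rate of 15 was reached by 31.4% of macrophages on diabetic day 1 and 28.0% on control day 1, and by 3.31% to 10.6% later. Among neutrophils it was 15.5% and 11.0% on day 1 and 3.61% to 6.23% later, and among T cells 0% to 5.97%. The effector genes were at 14507 and 12902 CPM in neutrophils of day 1 and 6679 to 10773 CPM later. Both day 1 libraries were above the rest in the share of members, and in the effector level of neutrophils, macrophages and T cells, so that no correlation was drawn over all 8. In the other monocytes control day 3 was the highest, at 11315 CPM against 10289 and 9784 CPM on day 1. Over the 6 later libraries the share of members and the effector level had r = 0.20 in other monocytes (exact permutation p = 0.70, rho = 0.26, p = 0.658), r = 0.018 in neutrophils (p = 0.982, rho = 0.14, p = 0.803) and r = 0.40 in macrophages (p = 0.415, rho = 0.26, p = 0.658). In T cells r was -0.73 (exact permutation p = 0.0958, rho = -0.89, p = 0.0333). With T cells set by a rate of at least 20, r was -0.25 (exact permutation p = 0.593, rho = -0.60, p = 0.242). None of the 4 relations passed after Benjamini-Hochberg adjustment over them (adjusted p from 0.383 to 0.982 for r and from 0.133 to 0.803 for rho). Without the 2 libraries farthest from the median share r was 0.15, -0.19, 0.11 and -0.59.

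Diabetic and control members were compared with edgeR's quasi-likelihood test on the summed UMIs of the 5 libraries, with day as a factor. Diabetic day 5 had no control library beside it and added nothing to the group difference, which rested on days 1 and 3. It could act only through the gene filter, the scaling and the spread. Of 3351 genes tested, 12 were higher in diabetic members (0.358%) and 4 were lower (0.119%) at an adjusted p under 0.05. None of the 39 antiviral effectors tested was among them by edgeR or DESeq2. In edgeR 3 of the 39 had an unadjusted p under 0.05 (0 in DESeq2), 15 had a positive difference and their median was -0.19 on the log2 scale, against -0.01 over all genes. Isg15 differed by -0.18 (edgeR SE 0.258, adjusted p = 0.997), Irf7 by -0.42 (SE 0.267, adjusted p = 0.9747) and Ifnb1 by 1.20 (SE 0.568, adjusted p = 0.776). On day 3 the diabetic library was lower than the control library for Isg15 (ratio 0.677, 95% counting interval 0.50 to 0.911), Irf7 (0.552, 0.390 to 0.774) and Ms4a4c (0.563, 0.444 to 0.710), whereas on day 1 the ratios were 1.08, 0.941 and 1.18. Not all effectors went this way on day 3: Oasl1 was at 1.495 (1.10 to 2.04) and Ifit1 at 1.29 (0.861 to 1.93). Each of these ratios set 1 library against 1, and the intervals cover counting error only.

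The genes that were higher in diabetic members were not antiviral effectors, and 1 of them, Jak2, belonged to the interferon receptors and signal transducers. Chil3, a chitinase-like protein of monocytes and neutrophils, stood at 2382 and 2041 CPM in diabetic members of days 1 and 3 against 1433 and 160 CPM in control members, and at 176 CPM on diabetic day 5 (edgeR log2 difference 1.96, SE 0.288, adjusted p = 3.55e-08). On diabetic day 3 a single cell gave 241 of its 351 UMIs. Il10, the anti-inflammatory cytokine, stood at 1058 and 2024 CPM against 505 and 475 CPM (edgeR log2 difference 1.55, SE 0.261, adjusted p = 5.28e-06). The other monocytes had the same order for both, with Chil3 at 3017 and 3406 against 1871 and 499 CPM and Il10 at 968 and 726 against 685 and 296 CPM.

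The other genes higher in diabetic members were Tnfrsf9, a costimulatory receptor (49.1 and 87.2 against 4.92 and 5.17 CPM), Csf3, the growth factor of granulocytes (177 and 192 against 55.7 and 31.0 CPM), Rgs1, Ggta1, Inhba, which encodes a subunit of activin A, Acod1, the enzyme that makes itaconate (2204 and 1483 against 1471 and 450 CPM), Serpinb2, Prdm1, the acute-phase gene Saa3 and the kinase gene Jak2 (350 and 442 against 190 and 145 CPM). By list, 3 of 17 inflammatory genes tested (Il10, Acod1 and Saa3) and 1 of 12 wound monocyte genes (Inhba) were higher and 0 were lower. Also higher were 1 of 10 interferon receptors and signal transducers (Jak2) and 1 of 9 classical monocyte genes (Chil3), again with 0 lower. Lower in diabetic members were Ly86 (158 and 198 against 282 and 631 CPM), the heat-shock gene Hspa1b (47.1 and 262 against 161 and 527 CPM), Nrp1 (21.6 and 5.82 against 88.5 and 82.7 CPM) and Mmp9, for which 84 of 87 UMIs on control day 3 lay in 1 cell. These calls ended under most other settings: 0 genes passed with RLE size factors in edgeR (144 at an unadjusted p under 0.05), without diabetic day 5 (182), without cells that held T cell genes in libraries of at least 15 members (108) or by DESeq2 (37), against 194 at that unadjusted p in the edgeR fit above. The fit had 1 residual degree of freedom and took its spread from all genes. No called gene turned in direction in the 13 or 14 alternatives run for it. None of these left out a library of day 1 or 3, and each call already had the same sign on both days. The direction could therefore hardly turn. The log2 difference ran from 1.09 to 1.59 for Il10 and from 1.05 to 1.24 for Jak2, but from 0.44 to 1.83 for Rgs1.

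The day of the wound was followed in a separate fit, with day as a number and group as a term. Of 3351 genes, 10 rose with day (0.298%) and 12 fell (0.358%) at an adjusted p under 0.05 by edgeR. Among the risers were 4 of 6 MHC class II genes tested. H2-Ab1 stood at 583, 2594 and 4635 CPM in diabetic members on days 1, 3 and 5 and at 318 and 1876 CPM in control members on days 1 and 3 (edgeR log2 change 0.85 per day, SE 0.127, adjusted p = 0.00533). H2-Aa, H2-Eb1 and the invariant chain Cd74 did likewise (0.85, 0.88 and 0.64 per day). The other monocytes also ranged from 634 to 1016 CPM of H2-Ab1 on day 1 and from 3444 to 4456 CPM on days 3 and 5. Ccr7 and Fscn1, genes of dendritic cells, together rose in members as well. They stood at 10.8 and 8.20 CPM on diabetic and control day 1, at 52.3 and 20.7 CPM on day 3 and at 94.3 CPM on diabetic day 5. How far dendritic cells among the members set the class II and Irf8 values was not tested. Irf8, a regulator of monocyte and dendritic cell fate, rose in members from 30.4 and 42.6 CPM on day 1 to 116 and 150 CPM on day 3 and 220 CPM on diabetic day 5 (0.73 per day, edgeR adjusted p = 0.0208).

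The other risers included genes of lymphocytes. Il2rb, Ets1, Thy1 and Trbc2, which T or NK cells use, rose by 0.98, 1.12, 1.16 and 1.09 per day, as did Nabp1 by 0.66. Trbc2 was at 170 CPM on diabetic day 5, where 2 of 20 members passed the T cell rate, against 4.92 to 62.0 CPM in the other 4 libraries. With cells of T cell genes left out and libraries of at least 15 members kept, 17 of the 22 genes still passed. Thy1, Ets1 and Trbc2 were then too low to be tested and Il2rb did not pass (edgeR log2 change 0.82 per day, adjusted p = 0.0580), while the 4 class II genes and Irf8 passed. With a lower rule rate of 10, H2-Ab1 was at 0.40 per day and did not pass (edgeR adjusted p = 0.184).

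Of the 12 genes that fell with day, 5 were chemokines (Ppbp, Ccl12, Ccl6, Ccl2 and Pf4). Ppbp, a chemokine of platelets and early myeloid cells, stood at 767 and 962 CPM on day 1, at 11.6 and 10.3 CPM on day 3 and at 0 on diabetic day 5, and at 158, 1126, 53.5, 13.6 and 173 CPM in the other monocytes of diabetic and control day 1, diabetic and control day 3 and diabetic day 5 (edgeR log2 change in members -3.16 per day, SE 0.197, adjusted p = 1.06e-06). Ccl12 fell from 345 and 844 CPM to 52.3 and 82.7 CPM and then 0, although 1 cell held 292 of 515 UMIs on control day 1. Ccl2 fell from 2836 and 3545 CPM to 872 and 682 CPM and then 641 CPM, and Ccl6 from 3473 and 4517 CPM to 1425 and 806 CPM and then 503 CPM. Of the 12 chemokines tested outside the Cxcr3 ligands these 3 fell and 0 rose. Ifnb1 fell by 1.47 per day on the log2 scale (edgeR SE 0.267, adjusted p = 0.0226). Mrc1 and Pf4, genes of macrophages and platelets, the neutrophil genes Retnlg and Lcn2, Chil3 and Ereg fell as well. Ppbp and Ccl12 passed under every setting in which they were tested (15 and 16). Without cells that held neutrophil or T cell genes, in the 6 libraries then left with 10 members, 20 genes passed and 9 of the 22 were among them. There Ccl2 (-0.12 per day, edgeR adjusted p = 0.859), Ccl6 (-0.37, 0.389), Ifnb1 (-0.59, 0.548), Lcn2 (-0.40, 0.520) and Chil3 (-0.66, 0.0797) did not pass, and Ereg turned in direction (0.017, 0.992). With the least number of members lowered to 10 and no cells left out, Ccl2, Ccl6, Ifnb1, Lcn2 and Ereg also did not pass (edgeR adjusted p from 0.184 to 0.986), while Chil3 passed. None of the 39 antiviral effectors tested passed by edgeR or DESeq2 (10 and 5 at an unadjusted p under 0.05, median -0.14 per day and 3 positive in edgeR), and Isg15 changed by -0.14 (edgeR SE 0.102, adjusted p = 0.712).

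**Figure D5:**
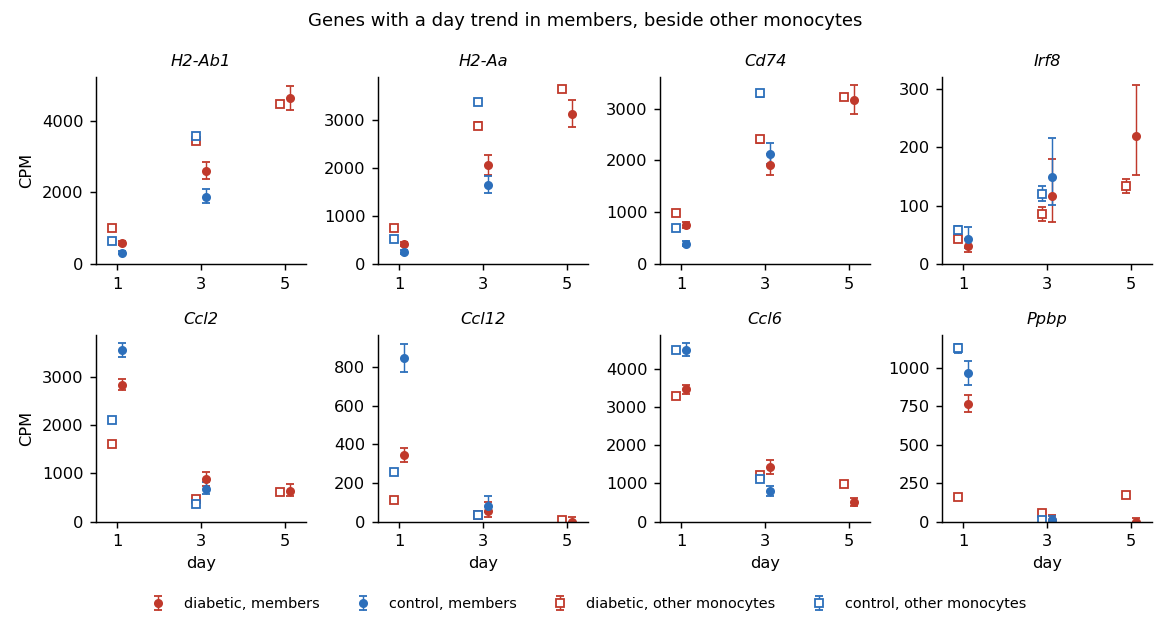
CPM (y axes) by day (x axes) of 8 genes with a day trend, in members (filled circles) and other monocytes (open squares) of diabetic and control libraries, with 95% counting intervals. H2-Ab1 in diabetic members goes from 583 to 4635 CPM between days 1 and 5, and Ppbp from 767 CPM to 0.

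Whether the group difference was another in members than in other monocytes was tested with library as a block in edgeR. This fit had 3 residual degrees of freedom and also took its spread from all genes. Of 8914 genes, 1 had a more positive diabetic minus control difference in members (0.0112%) and 4 a more negative one (0.0449%), with 255 at an unadjusted p under 0.05. They were Tnfrsf9 (log2 3.26, SE 0.713, edgeR adjusted p = 0.0114), Lyz1, Procr, Gbp2 and Cxcl9. These calls were lost under many settings: Lyz1 passed in 8 of 12 alternatives, Tnfrsf9, Procr and Cxcl9 in 5 of 12 and Gbp2 in 5 of 13, and 0 genes passed without the block or at 10 counts in every library. On simulated counts the same test recovered 34% of genes changed by 2 on the log2 scale and 0.50% of those changed by 1, so that it missed most changes of these sizes. Chil3 was not among the 5 (0.23, SE 0.251, edgeR adjusted p = 1), nor was Il10 (-0.03, SE 0.264, adjusted p = 1).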

How the data were processed

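Single-cell RNA was measured in CD45+ cells of 8 libraries, 1 per group and day. Per the labels and the study's methods, the authors trimmed reads with fastp 0.20.1 and made UMI counts per gene and cell with UMI-tools and STAR. The submitters' notes name mm9, and the sources differ on the platform (10x or BD Rhapsody). The deposited values are whole-number counts, not normalized, and no deposited annotation of cells was used. Members were chosen by marker rates per 10000 non-mitochondrial UMIs. The members and the gene lists were chosen with earlier results of these data known.

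Counts were summed per library over members and over other monocytes. Libraries with at least 20 members (5) entered the comparisons. Group (with day as a factor), day trend and the difference between members and other monocytes were fitted with edgeR 4.0.16 (quasi-likelihood, TMM, filterByExpr, Benjamini-Hochberg over all genes tested) in R 4.3.3, with DESeq2 1.42.0 as an alternative. The 95% intervals (exact binomial for shares, exact Poisson for levels) hold the counting error alone. Named genes were the rule and label genes, the 15 genes with the largest smallest ratio and the 10 with the lowest largest ratio, the genes of the lists, and up to 10 genes each way past the edgeR threshold with the same sign on every day. On simulated counts for the group comparison with 200 genes changed, edgeR recovered 83.5% of those changed by 2 on the log2 scale (3009 genes tested) and 7.0% of those changed by 1 (3012 tested). For the day trend it recovered 58% (2485 tested) and 72% (2814), and for the difference between members and other monocytes 34% (8488) and 0.50% (8597). These are shares of all 200 changed genes, of which 119 and 146 were tested for the day trend. For the group comparison 176 and 185 of them were tested, and for the difference 198 and 199. False calls numbered 8 and 2 for the group comparison, 0 and 3 for the day trend and 2 and 0 for the difference. Cells carry serial numbers in place of barcodes, so shared barcodes were not counted here, and no cell had the same profile as another. Alternatives covered the rule rates, cell filters, scaling, low-count filters, left-out libraries and days, thinning to 1000 UMIs and the block on day. Some genes of the lists are not reported here.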

Additional observations from a re-analysis of the deposited data

Results flagged for a closer look

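The diabetic minus control difference of 5 genes was not the same in members as in other monocytes by edgeR's test of the difference, with values as log2 and adjusted p-values over 8914 genes. Tnfrsf9 differed by 3.26 (edgeR adjusted p = 0.0114): members had 49.1, 87.2 and 195 CPM on diabetic days 1, 3 and 5 against 4.92 and 5.17 CPM on control days 1 and 3, where 3 cells and 1 cell held a UMI, and the other monocytes had 22.5, 50.6 and 178 against 26.0 and 40.7 CPM. Gbp2 differed by -1.40 (edgeR adjusted p = 0.0114), with members at 444 against 297 CPM on day 1 and 355 against 755 CPM on day 3, so that its direction differed between days. All 5 calls were fragile: Lyz1 passed in 8 of 12 alternatives, Tnfrsf9, Procr and Cxcl9 in 5 of 12 and Gbp2 in 5 of 13, and 0 genes passed without the block on library or at 10 counts in every library. For the remaining genes single cells held much of the signal.

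Lyz1 differed by -4.28 (edgeR adjusted p = 8.54e-05), and 30 of its 31 UMIs on control day 1 came from 1 cell. Procr, the receptor of protein C, differed by -2.26 (edgeR adjusted p = 0.0114), with 21 of its 34 UMIs on control day 3 in 1 cell. Cxcl9 differed by -5.17 (edgeR adjusted p = 0.0180), with 99 of its 102 UMIs on control day 3 in 1 cell, and its direction turned (0.019, edgeR adjusted p = 1) with libraries of at least 10 members, where diabetic day 7 entered. The part of these cells in the results was not tested.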

How the results depend on the processing

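With 1 library per group and day, precision was limited by the number of members, from 2 to 176. The mean difference in share between diabetic and control libraries stayed above 0 under each alternative run. It ran from 0.874 points (rule rate of 30) to 2.92 points (without cells, members or not, with neutrophil or T cell genes) among monocytes, with exact permutation p from 0.13 to 0.50, and was 0.563 points as a share of all cells. With cells thinned to 1000 UMIs it was 2.86 points, above 0 on 4 of 4 days. The alternatives without cells with T cell genes, and those that changed both the cells and the least number of members (10 or 15), were chosen after seeing the data.

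The count of genes at least 2-fold higher in every library (22) was 12 at a rule rate of 10, 123 at 30 (2 libraries), 57 without cells with neutrophil or T cell genes (3 libraries), 12 with the mean rate over cells and 17 with cells thinned to 1000 UMIs (11 of the 22 among them). The 0 genes at least 2-fold lower became 10 at 30, 3 when thinned and 2 without cells with neutrophil or T cell genes. The 16 group calls became 26 at a rule rate of 10 (12 of the 16 among them), 11 with no filter on low counts (9), 4 at 500 genes per cell (4) and 1 at 2 rule UMIs (1). They became 0 with RLE size factors, at 10 counts in every library, at 10 members per library, by DESeq2, without day 5 or diabetic day 5, and under both changes of cells and libraries (without T cell genes at 15 members per library, without neutrophil or T cell genes at 10), where the part of each was not separated. The 22 day calls became 38 at a rule rate of 10 (8 of the 22 among them), 69 with no filter (22), 35 at 10 members per library (12), 36 without day 5 (11), 20 without neutrophil or T cell genes at 10 members per library (9) and 21 to 38 when 1 library was left out (11 to 22). The 5 calls of the difference between members and other monocytes became 0 at 10 counts in every library, 1 at 10 members per library, 8 without day 1, 1 without day 3, 3 without day 5 and 1 to 7 when 1 library was left out. The cause was not tested.

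The block on day (group) or on library (difference) changed calls: without the replicate block 0 genes passed for the group (90 at an unadjusted p under 0.05 in edgeR) and 0 for the difference, and Ifi205 turned from 0.08 to -0.012. Libraries of 1 day share no animals, so the block pairs them by day only. Signs also turned for the correlation in neutrophils (-0.0074 when thinned), for Ereg (0.017 per day without neutrophil or T cell genes) and for Cxcl9 (0.019 at 10 members per library). The group and day fits at a rule rate of 30, without cells with neutrophil or T cell genes at 20 members, and without day 1 or day 3 could not be fitted, nor could the group fit without any 1 of the libraries of days 1 and 3.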

Other observations

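Libraries with fewer than 20 members entered no comparison of genes. Ifi205, Ms4a4c and Irf7 together stood at 997 CPM in the 16 members of diabetic day 7 and 269 CPM in its other monocytes, at 156 and 204 CPM on control day 5 (3 members), and at 671 and 375 CPM on control day 7 (2 members). The effector genes together stood at 9806 and 5066 CPM on diabetic day 7, at 3871 and 4653 CPM on control day 5 and at 6295 and 7020 CPM on control day 7. Deep cells weigh most in these sums, and 1 of the diabetic day 7 members had 39386 UMIs: per cell, the median effector rate of that library was 42.3 per 10000 in members and 46.3 in the others, and 9 of the 16 members lay below the latter. On control days 5 and 7 the medians per cell also went the other way from the sums, and were higher in members. Cxcl9 on diabetic day 7 held 256 UMIs in 2 members, 174 of them in 1 cell.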
